A study of Mus musculus with 4 samples.

Results

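Aminoacyl-tRNA synthetases are the enzymes that join each amino acid to its tRNA, and their genes were read here in cultured mouse cells. They were taken as every gene whose symbol follows the naming pattern of the family (a letter and "ars", with or without a number, Eprs, Farsa and Farsb), which gave 37 genes of the 55359 in the deposited table. Of these, 20 encode enzymes of the cytosol, 2 of which (Gars and Kars) also serve mitochondria, and 17 encode enzymes of mitochondria alone.

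Poly(A) RNA of 4 libraries, called 01, 02, 21 and 22 after the numbers in their titles, was sequenced. All carry the same label, female germ line stem cells from mouse ovary, grown with serum and the added factors epidermal growth factor, basic fibroblast growth factor, GDNF and leukemia inhibitory factor. The series design names celastrol, a plant triterpenoid, controls, 12 h and triplicates, but no label says which of the 4 libraries received celastrol. No library was therefore put in a group, no test between conditions was run, and every value describes a library and not a treatment.

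Each enzyme activity recognises 1 amino acid and the tRNAs that carry it, and feeds the charged tRNA to the ribosome. The enzymes fall into class I and class II by the fold of their catalytic domain. Cytosolic and mitochondrial protein synthesis use separate enzymes for most amino acids, all encoded in the nucleus. In the cytosol several synthetases are held together with scaffold proteins in the multisynthetase complex. When charged tRNA runs short, the kinase GCN2 senses uncharged tRNA and raises the translation of ATF4, a transcription factor that in other mouse cells switches on many of the cytosolic synthetase genes.

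The libraries held 12339636 to 13039541 counts each. Values are always in the order 01, 02, 21 and 22, in the authors' FPKM (fragments scaled to the exonic length of the gene in kilobases and to the total count of the library) unless counts are named. Intervals are exact Poisson 95% intervals of the count and cover counting error only. Some genes share sequence with others. In 10 of the 37 genes another gene with a mean of at least 1 FPKM overlapped on the opposite strand, and whether the counting used strand is not known. Of the 100-base stretches of their GENCODE M21 transcripts, 78.6% were unique to the gene for Iars2, 87.2% for Aars, 93% for Fars2 and 94.7% for Farsb, so the values of those 4 are less certain.

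The germ cell label was not borne out by most of its markers. Of 10 germ cell markers, 2 (Kit and Ifitm3, which other cell types also use) were at 1 FPKM or more in all libraries, while Ddx4, the germ cell helicase gene, had 0, 2, 0 and 0 counts and Dazl had 0, 4, 0 and 0. The macrophage antigen gene Adgre1 was at 218, 220.5, 97.7 and 96.3 FPKM and the mast cell protease gene Cpa3 at 333, 325, 229 and 247 FPKM, higher in libraries 01 and 02 than in 21 and 22. Cd68, of macrophages, at 25.3, 25.5, 11.7 and 13.3 FPKM, and Pdgfra, of fibroblasts, at 9.28, 10.5, 5.97 and 6.36 FPKM, lay the same way. The other fibroblast markers did not share that gap. In Col1a1 and Col1a2 the highest library was 1.14 times the lowest. Dcn was higher in libraries 21 and 22, at 20.3, 20.01, 23.1 and 24.1 FPKM. Kit was also higher there, at 58.9, 64.6, 100.7 and 100.3 FPKM. Ptprc, which white blood cells in general express, was even at 10.2, 11.2, 10.4 and 11.3 FPKM. Of the other defining markers of those cell types, Csf1r stayed at or below 0.15 FPKM, Fcer1a and Mcpt4 had no count and Ms4a2 at most 13 counts. In every library 3 of 4 macrophage, 1 of 4 mast cell and 4 of 4 fibroblast markers reached 1 FPKM, and none of the 4 oocyte or 4 granulosa markers did. The summed level of the 4 macrophage markers was 254, 257, 119.9 and 120.9 FPKM, and that of the 4 mast cell markers 334, 325, 229.5 and 247 FPKM, sums made up mostly of Adgre1 and almost wholly of Cpa3. The summed level of the 4 fibroblast markers was 72.4, 75, 68.8 and 70.9 FPKM. The part of the mix of cells in the synthetase values was not tested, and in bulk RNA fewer cells of a type cannot be told apart from less RNA per cell.

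A short promoter sequence is shown first, because it is the kind of element through which ATF4 acts on such genes. ATF4 binds with C/EBP proteins to elements that contain TTGCATCA, which reads TGATGCAA on the other strand. RefSeq promoters (250 bases before to 50 after the start, build GRCm38.p6) were found for 27 of the 37 genes by symbol. TTGCATCA stood, on either strand, in 4 of the 27, all of them genes of the cytosol, against 0.895% of 32851 promoters of all genes. Here and for the motifs below, the family was counted by gene and the background by promoter. The shares are therefore not strictly like for like. These are the 30 bases around the match in the isoleucyl, threonyl and tyrosyl genes, 5′ to 3′ on the strand of the gene, with the match in capitals.
Iars: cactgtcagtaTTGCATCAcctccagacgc
Tars: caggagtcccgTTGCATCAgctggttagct
Yars: acgagctcagcTGATGCAAcccgacgggac

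In Tars, at chr15:11399655-11399684 on the minus strand, the match begins 15 bases before the start. The Iars match, at chr13:49682126-49682155 on the plus strand, begins at base 8 after the start, and that of Yars, at chr4:129189895-129189924 on the plus strand, at base 4. All 3 genes are among the 12 of the family known as ATF4 targets in other mouse cells, 8 of which had a promoter to search. None of the 14 mitochondrial genes with a promoter held the motif. At a share of 0.895% of all promoters, a match among so few would be rare in any case. Its absence there is therefore not a result about mitochondrial genes. A match is a run of letters and not a measured binding site.

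Other motifs, more common among all promoters, were searched in the same way. The E-box CACGTG, which MYC and related factors bind, is its own reverse complement. It stood in 5 of the 27, 1 of them mitochondrial (Ears2), against 7.15% of all promoters. Iars, Tars and Farsb were among the 5. CCGGAAG, of the type that ETS factors bind and searched on both strands, was in 9 of the 27, 4 of them mitochondrial, against 8.86%. Iars and Tars held both the first motif and the E-box, which do not share bases in these promoters.

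All 37 genes reached 1 FPKM in each of the 4 libraries, against 20.1% of all genes in the table. They took 0.842%, 0.835%, 0.845% and 0.84% of all counts, with Wilson 95% intervals that together span 0.83% to 0.85%. The share of the whole family therefore differed little between libraries, while single genes differed more.

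The most abundant genes of the family were those of the glycyl, asparaginyl and seryl enzymes. Gars, whose product charges glycine in both compartments (chromosome 6, 55014992 to 55056485, plus strand, positions as deposited, with no build named), was at 229.6, 228, 222 and 217 FPKM and ranked 196th of the 55359 genes by mean FPKM. Nars, for asparagine, was at 205, 205, 195 and 206 FPKM, and Sars, for serine, at 147, 143, 145 and 145 FPKM. Sars varied least of the 37 on the log2 scale, and in Gars and Nars the highest library was within 1.06 times of the lowest. Rars, for arginine, followed at 96.7, 91.9, 88.7 and 91.7 FPKM and Aars, for alanine, at 74.8, 74.5, 72.8 and 70.5 FPKM.

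At the other end stood mitochondrial enzymes. Wars2, the mitochondrial tryptophanyl enzyme gene, was the lowest in FPKM at 2.07, 2.17, 2.2 and 2 from 152, 168, 162 and 153 counts, with Poisson intervals that overlapped in all libraries. Ears2, for glutamate, Fars2, for phenylalanine, and Nars2, for asparagine, had medians of 3.55, 3.69 and 4.14 FPKM. The cytosolic gene with the lowest FPKM was Farsa, a subunit of the phenylalanyl enzyme, at 22.5, 22.8, 24.7 and 24.2 FPKM. Of the mitochondrial genes, only Lars2 exceeded that level.

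**Figure D1:**
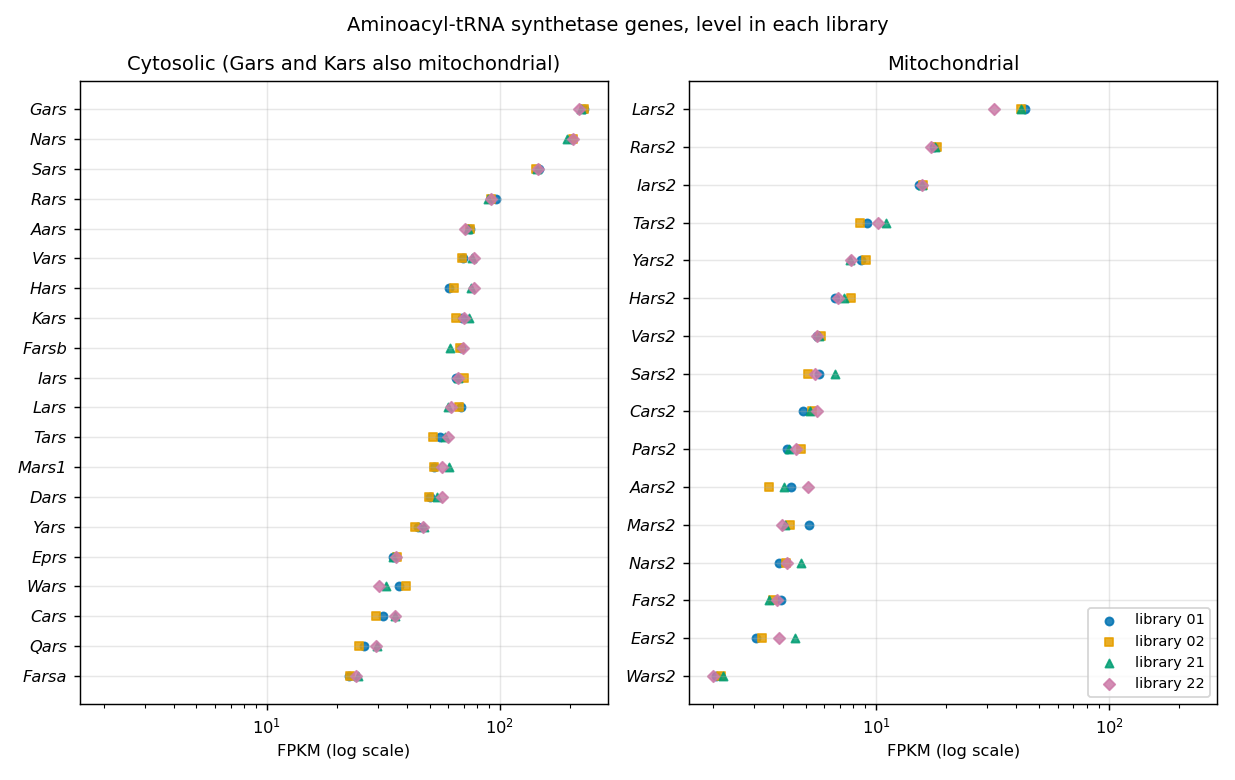
FPKM (log scale) of 36 of the 37 genes in libraries 01, 02, 21 and 22, cytosolic genes on the left and mitochondrial genes on the right, sorted by median. The cytosolic genes run from Farsa at 22.5 FPKM to Gars at 229.6 FPKM in library 01, the mitochondrial genes from Wars2 at 2.07 FPKM to Lars2 at 43.4 FPKM, and the symbols of a gene mostly lie on each other.

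The cytosolic genes had a median of 62.4, 64.2, 60.8 and 64.03 FPKM and the mitochondrial genes one of 5.61, 5.33, 5.69 and 5.57 FPKM. The ratio of the medians was 11.1, 12.1, 10.7 and 11.5 in the 4 libraries. FPKM divides by the exonic gene length in the table, which was 1.25 to 6.42 times the longest coding sequence that GENCODE M21 gives for the gene. A gene with long annotated non-coding exons is thus set low. With counts divided by the library total and by coding kilobases instead, an alternative added after the values were seen, the median ratio over the libraries was 6.4 in place of 11.3.

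That choice moved some genes far in the order. Eprs, the fused glutamyl and prolyl enzyme and the one member with a domain of each class, was at 34.9, 36.2, 34.9 and 36 FPKM with an exonic size of 18102 bases, and ranked 17th of the 37 by median FPKM. Per coding length it ranked 11th. Lars2 ranked 16th by FPKM and 5th per coding length. Wars2, with an exonic size 5.51 times its coding sequence, was 37th by FPKM and 33rd per coding length, where Aars2 was the lowest. Nars, Sars and Gars were the first 3 on both scales, in the order Gars, Nars and Sars by FPKM and Nars, Sars and Gars per coding length.

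Setting the cytosolic gene over the mitochondrial gene for the same amino acid gave 18 ratios, and in FPKM all were above 1 in every library. The median ratio of the 18 was 8.89. The widest gap in FPKM was for asparagine, where Nars stood over Nars2 by 53.3, 49.96, 41.01 and 49.5 times. For serine, Sars stood over Sars2 by 25.8, 28, 21.8 and 26.4 times. Per coding length the order at the top differed, with median ratios of 39.2 for serine, 34.8 for alanine and 26.6 for asparagine. The narrowest was for leucine, where Lars stood over Lars2 by 1.58, 1.6, 1.44 and 1.93 times. Per coding length that ratio was 0.585, 0.592, 0.532 and 0.717, so the order of the leucyl genes turned round with the length used, and the other 17 ratios stayed above 1. Isoleucine had the next lowest ratio in FPKM, with Iars over Iars2 by 4.23, 4.44, 4.16 and 4.23 times.

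**Figure D2:**
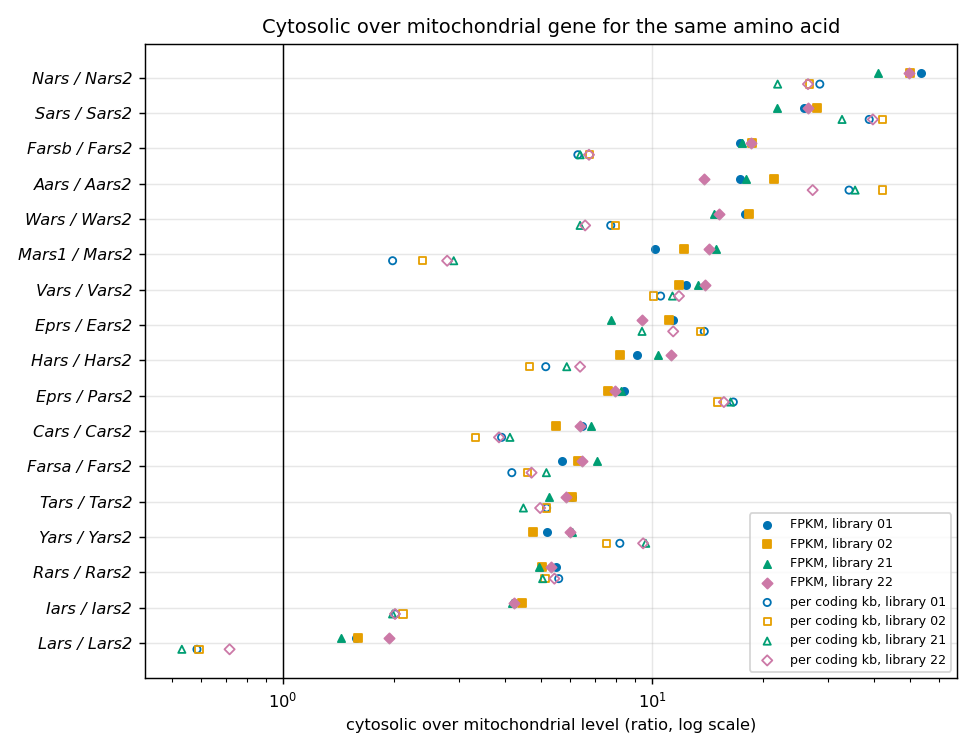
Ratio of the cytosolic to the mitochondrial gene for the same amino acid in each library (log scale), with filled symbols for FPKM and open symbols for counts per coding kilobase, and a line at a ratio of 1. Filled symbols are right of the line for all 17 pairs drawn, while the open symbols of Lars over Lars2 lie left of it at 0.532 to 0.717.

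The phenylalanyl enzyme of the cytosol is built from equal numbers of an alpha subunit (Farsa) and a beta subunit (Farsb). Farsb was at 68.1, 67.4, 61.1 and 69.5 FPKM, which was 3.03, 2.96, 2.48 and 2.87 times Farsa. Per coding length the ratio was 1.51, 1.48, 1.23 and 1.43. Library 21 had the lowest ratio, with the lowest Farsb and the highest Farsa of the 4 libraries. Gene lengths are the same in every library, so the order of the libraries cannot differ between the units.

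The 8 members of the multisynthetase complex had levels near those of the other cytosolic genes. Their median was 58.4, 58.5, 60.2 and 59.2 FPKM, against 64.2, 65.6, 66.9 and 70.02 FPKM for the 12 cytosolic genes outside it. Within the complex Rars was the highest in FPKM and Qars, for glutamine, the lowest at 26.2, 24.8, 29.8 and 29.3 FPKM. Per coding length Kars was the highest and Mars1 the lowest. Kars, for lysine, was at 68.9, 64.6, 73.9 and 69.9 FPKM, Iars, for isoleucine, at 64.5, 70.5, 65.8 and 66.2 FPKM, and Lars, for leucine, at 68.4, 66.9, 59.97 and 61.8 FPKM. Mars1, for methionine, was at 52.2, 52.3, 60.4 and 56.5 FPKM. It overlaps by 68 bases, on the opposite strand, the stress gene Ddit3, which was at 118, 107, 124 and 127 FPKM. Dars, for aspartate, was at 50.3, 49.8, 53.6 and 56.5 FPKM. In FPKM the scaffold genes were lower than most of the enzymes they hold. Their levels per coding length were not computed, so this order may depend on the length used. Aimp1 was at 18.4, 16.9, 19.2 and 18.8 FPKM, Aimp2 at 27.6, 23.2, 29.5 and 27.7 FPKM and Eef1e1 at 31.7, 29.7, 28.1 and 25.4 FPKM.

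How far the genes differed between libraries was measured as the log2 range, the difference in log2(FPKM + 1) between the highest and the lowest library. None of the 37 had a range of 0.5 or more, against 17.3% of the 11874 genes whose mean reached 1 FPKM. The median range was 0.18 for the family and 0.27 for those 11874 genes. These ranges were not compared at like counts. A mean of 1000 counts or more was reached by 22 of the 37 genes, against 3123 of the 11874. No range is a comparison of conditions. The range of low genes is also held down by the pseudocount of 1, and with one of 0.1 the count was 2, Aars2 and Ears2. In 28 of the 37 genes leaving out 1 library narrowed the range by more than 1.5 times. Leaving out the highest or the lowest library narrows a range in any case, and the share of all genes was not counted. The count of 28 is therefore not a result about the family.

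The Poisson intervals of the lowest and the highest library were separate in 24 of the 37 genes, against 56.9% of the 11874. That share depends on the number of counts. Among genes with a mean of 1000 counts or more, 18 of 22 members had separate intervals, against 79.3% of all such genes, and among genes with fewer counts 6 of 15, against 48.9%. Both shares of the family are near those of all genes and are not a result about it.

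The widest range, 0.44, was that of Aars2, the mitochondrial alanyl enzyme gene, at 4.32, 3.49, 4.05 and 5.11 FPKM from 254, 217, 239 and 313 counts. Library 22 was the highest and 02 the lowest, and their intervals, 4.56 to 5.71 and 3.04 to 3.99 FPKM, were separate. Its range was 0.25 without library 22 and 0.28 without library 02. Ears2, for mitochondrial glutamate, also had a range of 0.44, at 3.07, 3.25, 4.51 and 3.84 FPKM. It was higher in libraries 21 and 22 than in 01 and 02, with separate intervals for libraries 21 (4.01 to 5.07 FPKM) and 01 (2.65 to 3.53 FPKM). Without library 21 its range was 0.25. Its gene overlaps Ubfd1, on the opposite strand, by 89 bases.

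Lars2, the mitochondrial leucyl enzyme gene (chromosome 9, 123195992 to 123291731, plus strand, positions as deposited), had 5935, 6053, 5738 and 4558 counts, or 43.4, 41.9, 41.8 and 32 FPKM. Library 22 alone was low, with an interval of 31.1 to 32.9 FPKM, and the other 3 libraries lay within 1.04 times of each other. The range of Lars2 was 0.43 over the 4 libraries and 0.05 without library 22. Lars2 supplied a large part of the counts of the mitochondrial genes. These took 0.109%, 0.107%, 0.109% and 0.097% of all counts with Lars2, and 0.06%, 0.061%, 0.062% and 0.061% without it, so the low share of library 22 was not seen in the other 16 genes together. No stretch of 100 bases in the GENCODE M21 transcripts of Lars2 was found in a GENCODE M21 transcript of another gene. Sequence outside those transcripts was not compared.

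Wars and Hars had the widest ranges among the cytosolic genes and lay in opposite directions. Wars, the tryptophanyl enzyme gene, which interferon gamma is known to induce, was at 36.9, 39.7, 32.3 and 30.4 FPKM. It was higher in libraries 01 and 02 than in 21 and 22, with a range of 0.37 and intervals of 37.8 to 41.5 FPKM in library 02 and 28.8 to 32.03 FPKM in library 22. Hars, the histidyl enzyme gene, was at 60.3, 63.8, 75.1 and 77.1 FPKM, a range of 0.35. It was lower in libraries 01 and 02 than in 21 and 22, and the intervals of library 01 (57.6 to 63.2 FPKM) and 22 (74.1 to 80.2 FPKM) were separate. Hars and Hars2 overlap head to head by 198 bases on opposite strands, and 96.1% of the 100-base stretches of Hars were found in no other gene.

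Other cytosolic genes that were higher in libraries 21 and 22 than in 01 and 02 had narrower ranges. Cars, for cysteine, was at 31.5, 29.3, 35.7 and 35.7 FPKM, a range of 0.27. Vars, for valine, was at 69.4, 68.8, 75.8 and 77.3 FPKM, a range of 0.17. Tars, for threonine, was at 55.3, 51.9, 58.1 and 59.6 FPKM and Yars, for tyrosine, at 44.6, 43.3, 47.2 and 46.6 FPKM. Qars, Mars1, Dars, Kars and Farsa, given above, lay the same way, though the intervals of the lowest and highest library of Farsa overlapped. Lars, with a range of 0.19, and Gars and Aars, all given above, lay the other way, as Wars did. Rars was nearly equal in libraries 02 and 22, at 91.9 and 91.7 FPKM. Its range of 0.12 was 0.05 without library 01.

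Among the mitochondrial genes, Tars2, for threonine, was higher in libraries 21 and 22, at 9.11, 8.55, 11.1 and 10.2 FPKM, a range of 0.34. Mars2, for methionine, was high in library 01 alone, at 5.14, 4.28, 4.07 and 3.96 FPKM, with a range of 0.31 that was 0.09 without that library. Sars2, for serine, was highest in library 21, at 5.7, 5.12, 6.65 and 5.5 FPKM, with a range of 0.32 that was 0.13 without that library, and Nars2 likewise at 3.84, 4.11, 4.75 and 4.16 FPKM. Yars2, for tyrosine, was at 8.62, 9.08, 7.77 and 7.78 FPKM and Hars2, for histidine, at 6.65, 7.78, 7.26 and 6.86 FPKM, and in both the intervals of the lowest and the highest library overlapped.

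In other mitochondrial genes no difference between libraries stood clear of counting error. Iars2, for isoleucine, was at 15.2, 15.9, 15.8 and 15.7 FPKM, and it shares sequence with Rab3gap2, which overlaps it on the opposite strand. Rars2, for arginine, was at 17.7, 18.3, 17.9 and 17.2 FPKM and Vars2, for valine, at 5.61, 5.81, 5.69 and 5.57 FPKM. Cars2, for cysteine, was at 4.87, 5.33, 5.23 and 5.6 FPKM, Pars2, for proline, at 4.16, 4.76, 4.23 and 4.55 FPKM and Fars2 at 3.93, 3.62, 3.48 and 3.75 FPKM. None of these 6 had separate intervals for its lowest and highest library. Cars2, with a range of 0.17, and Pars2, with one of 0.16, varied about as much as Vars, but on fewer counts.

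**Figure D3:**
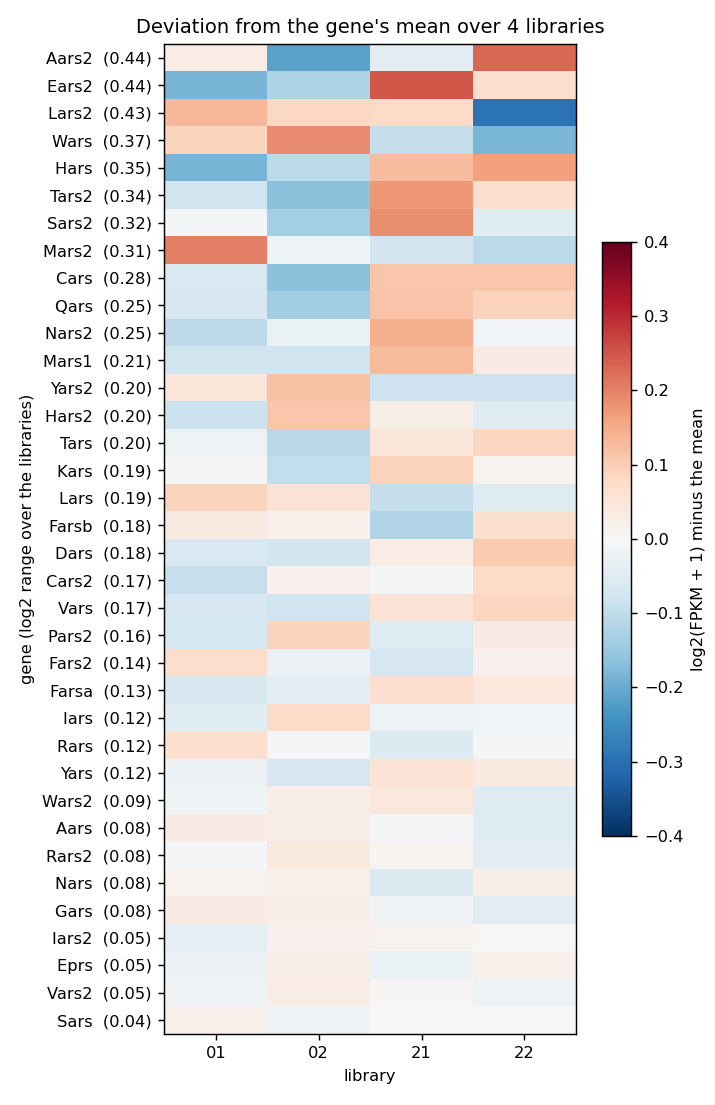
Deviation of each library from the mean log2(FPKM + 1) of the gene over the 4 libraries, for 36 of the 37 genes sorted by log2 range (in brackets), with red above and blue below the mean. The rows of Aars2 and Ears2, with ranges of 0.44, are strongly coloured, as is library 22 of Lars2, and the lowest rows, down to Sars with a range of 0.04, are nearly white.

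**Figure D4:**
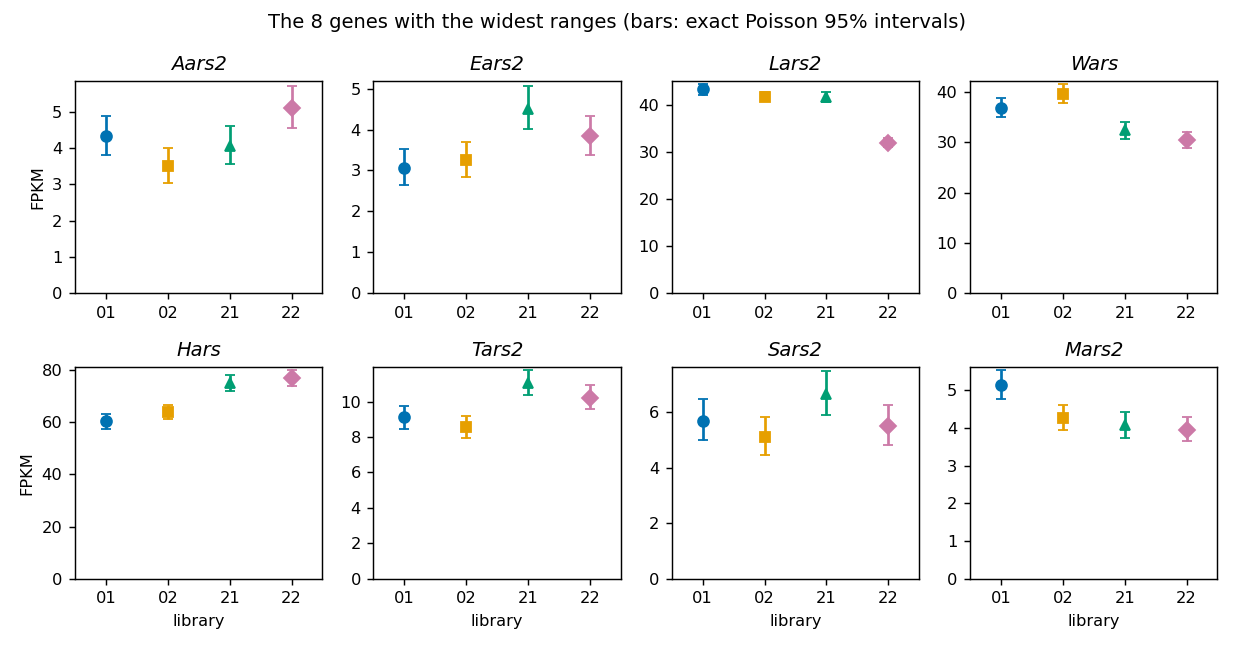
FPKM in each library, with exact Poisson 95% intervals as bars, for the 8 genes with the widest log2 ranges, on axes that start at 0. Lars2 is low in library 22 alone, Wars is lower and Hars higher in libraries 21 and 22 than in 01 and 02, and the bars of Aars2, Ears2 and Sars2, which had 195 to 313 counts, are wider relative to their levels than those of the other 5.

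The 12 cytosolic genes known as ATF4 targets in other mouse cells had a median range of 0.12, against 0.18 for the remaining 8. Their median level was 59.9, 59.6, 60.2 and 60.7 FPKM, against 64.2, 64.2, 67.5 and 69.7 FPKM for the remaining 8. Per coding length that order of the levels turned round. There the middle genes of the 12, Tars and Eprs, ranked 8th and 11th of the 37. Those of the remaining 8, Hars and Vars, ranked 12th and 13th. The mRNA of Atf4 itself was at 354, 315, 341 and 353 FPKM, lowest in library 02. It is regulated mostly at translation, which these data do not measure. The promoter matches shown above belong to Iars, Tars and Yars, whose ranges were 0.12, 0.20 and 0.12.

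Genes that work beside the synthetases were taken from 6 lists of 22 genes, all of them at 1 FPKM or more in every library. None of the 22 had a range of 0.5 or more, against the 17.3% of all genes given above, again not compared at like counts. Separate intervals were found in 11, against 56.9%, which is near the share of all genes. The median range of the 22 genes was 0.18. Xpot, the exporter of tRNA from the nucleus, had one of the widest ranges, 0.38, at 54.9, 56.2, 42.99 and 44.4 FPKM, higher in libraries 01 and 02. Aarsd1, an editing factor for alanyl-tRNA, had a range of 0.39 from 59 to 86 counts, and its intervals overlapped. In the list of uncharged tRNA sensing, Eif2ak4, which encodes GCN2, was at 2.56, 2.63, 3.38 and 2.88 FPKM, and Gcn1, its activator, at 10.6, 11.4, 12.04 and 11.1 FPKM. Eif2s1, which encodes the initiation factor subunit that GCN2 phosphorylates, was at 51.1, 54.99, 64.1 and 62.4 FPKM, higher in libraries 21 and 22, and the GCN2 inhibitor gene Impact was at 19.96, 19.6, 17.5 and 18.2 FPKM.

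Mitochondria have no glutaminyl enzyme of their own in this family, and the 17 mitochondrial genes with Gars and Kars cover 19 amino acids. Their glutaminyl-tRNA is made by charging with glutamate through Ears2 and converting it with the amidotransferase of Qrsl1, Gatb and Gatc. Qrsl1 was at 3.91, 3.78, 3.25 and 3.69 FPKM, Gatb at 4.92, 5.99, 4.83 and 4.92 FPKM and Gatc at 12.3, 11.8, 12.4 and 10.8 FPKM. The lowest and highest libraries of each had overlapping intervals, as did those of Mtfmt, which formylates the initiator methionyl-tRNA of mitochondria, at 4.5, 4.91, 4.33 and 4.58 FPKM. The elongation factors that take charged tRNA to the ribosome were far apart in level. Eef1a1, of the cytosol, was at 5145, 4975, 5361 and 5363 FPKM and Tufm, of mitochondria, at 37.3, 38.7, 38.1 and 37.3 FPKM.

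Selenocysteine is made on a tRNA first charged by the seryl enzyme. The kinase gene Pstk was at 2.31, 2.39, 2.42 and 2.8 FPKM, the synthase gene Sepsecs at 7.07, 7.29, 7.12 and 7.43 FPKM and the dedicated elongation factor gene Eefsec at 14.4, 12.8, 13.2 and 15.6 FPKM. Of the proofreading genes, Dtd1 was at 9.06, 9.19, 9.26 and 9 FPKM, Dtd2 at 11.1, 11.7, 12.03 and 12.1 FPKM and Prorsd1 at 7.81, 8.29, 8 and 8.7 FPKM. Tarsl2, a further threonyl enzyme gene of the cytosol whose symbol the naming pattern does not take, was at 4.53, 4.76, 4.29 and 4.98 FPKM, far below Tars.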

How the data were processed

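The deposited table holds raw read counts and FPKM for each gene and library. The counts are whole numbers with a different total in each library, so they were taken as not normalised, from the values. Per the file headers the FPKM values are the authors' own, and dividing counts by exonic size and FPKM returned the summed counts within 0.05% above 10 FPKM. Per the submitters' processing notes the tools were FastQC, HISAT2 and DESeq2, with no version or role. The read counter, strand setting and build are not stated. Of the 37 genes, 1 has the same start in GENCODE M21 (GRCm38), so coordinates are as deposited and promoter coordinates are GRCm38.p6.

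The labels say nothing of separate cultures and give no group, so values are per library with no test. Every gene of the family entered the counts and medians, and the lists of companion genes and markers were fixed. Members and lists were, however, chosen with earlier results of these data known. The promoter motifs were chosen after the values were seen. Unique sequence is the percent of 100-base stretches of GENCODE M21 transcripts, on either strand, found in no other gene. Ranges and intervals were tested on simulated data. Python 3.11.15, numpy 2.4.6, pandas 2.3.3, scipy 1.17.1 and, for TMM factors, edgeR 4.0.16 in R 4.3.3 were used. Alternatives were other thresholds, pseudocounts, scalings and intervals, a left-out library, the placing of Gars and Kars, coding length and genes with unique sequence. A gene of the family and a promoter sequence are not reported here, although counts and medians over the family include them. PCR copies are not independent molecules, so intervals cover counting error only.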

Additional observations from a re-analysis of the deposited data

Results flagged for a closer look

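In 2 of the 37 genes, 1 library stood apart from the other 3, by the gap to its nearest neighbour as a share of the whole range over the 4 libraries. The labels define no group, so all 4 libraries entered. Chance alone gives such a gap in about 1 gene in 20 where the 4 values are independent draws from 1 normal distribution. The libraries lay in close pairs, as given below, so that rate may not hold here. The share of all genes was not counted. The count of 2 is therefore not a result about the family. For Lars2 the share was 0.859, with library 22 at 32 FPKM and the others at 41.8 to 43.4 FPKM. For Nars the share was 0.897, with library 21 at 195 FPKM and the others at 205 to 206 FPKM, a log2 range of 0.08.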

How the results depend on the processing

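The count of genes at 1 FPKM or more in every library was 37 at 0.5 FPKM and 29 at 5 FPKM. The median log2 range of 0.18 was 0.18 to 0.19 under another pseudocount, under 3 other scalings, with no filter and for genes with at least 95% unique stretches, and 0.125 to 0.156 without 1 library each. No gene had a range of 0.5 or more under those settings except with a pseudocount of 0.1, where 2 did. Genes with separate intervals numbered 24, and were 20 with 99% intervals, 24 with TMM factors and 17 to 21 without 1 library each. The ratio of cytosolic to mitochondrial medians, 11.3, was 10.7 without Gars and Kars, 11 with them in both sets, 11.1 to 11.5 without 1 library each, and 6.401 per coding length, an alternative added after the values were seen. All 148 ranges of single genes under another pseudocount or scaling moved by less than counting error. Counting error limits the mitochondrial genes most, since 15 of the 17 had a mean of under 1000 counts.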

Other observations

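Libraries 01 and 02, and likewise 21 and 22, were closer to each other than any other pairing. The median absolute log2 difference over the 37 genes was 0.062 between 01 and 02 and 0.048 between 21 and 22, and 0.088 to 0.12 between the other 4 pairs. Over the 11874 genes whose mean reached 1 FPKM it was 0.092 and 0.082, and 0.165 to 0.172 between the other pairs. In 13 of the 37 genes libraries 21 and 22 were the 2 highest, and in 9 genes libraries 01 and 02 were, which is 35.1% and 24.3% of the family, against 31.1% and 31.2% of the 11874 genes. No label ties these pairs to a treatment.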
